A study of Mus musculus with 138 samples.

Results

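The 10 genes described here belong to, or are named for, the transforming growth factor-beta (TGF-beta) pathway. They are the ligand genes Tgfb1, Tgfb2 and Tgfb3, the receptor genes Tgfbr1, Tgfbr2 and Tgfbr3, the latent TGF-beta binding protein genes Ltbp1 and Ltbp3, the matrix protein gene Tgfbi and the corepressor gene Skil. They were chosen by name with earlier results of these data known, so counts of their calls beside the share of all genes are a description. All 10 were among the 19768 genes tested of 55487 in the count table. RNA was sequenced from suture mesenchyme (SM), the tissue between the skull bones, and from osteogenic fronts (OFs), the growing bone edges, each captured by laser from sections of wild-type C57BL/6J mouse embryos at the embryonic ages E16.5 and E18.5. There were 20 groups of 5 first libraries, from 40 embryos that carried no engineered allele and received no treatment. The coronal suture gave SM, frontal OF and parietal OF, the lambdoid suture SM, interparietal OF and parietal OF, the frontal suture SM and frontal OF, and the sagittal suture SM and parietal OF. SM and OF libraries with the same suture, age and replicate number came from the same embryo, whereas the ages came from different litters, so that age and litter cannot be told apart. By the litter IDs the 40 embryos came from 17 litters, with 2 to 4 litters for the 5 embryos of a suture and age, and 3 litters gave embryos to more than 1 suture. Dissociated coronal sutures, pooled from several embryos of both sexes, gave 4 single-cell libraries.

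TGF-beta ligands are secreted in a latent complex that LTBP proteins tether to the matrix, and they signal once they are released from it. The free ligand binds the type II receptor TGFBR2, which recruits and activates the type I receptor TGFBR1, and SMAD proteins then carry the signal into the nucleus. TGFBR3, or betaglycan, presents ligand to TGFBR2 and is known for its importance to TGF-beta 2, while the SKIL protein (SnoN) holds SMAD target genes in check. In calvarial sutures the pathway is known for its roles in osteoblast differentiation and in keeping sutures open.

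Promoters were available for 7 of the 10 genes, and 3 are shown because their genes lay on opposite sides of the SM and OF comparison. Tgfb1 was the ligand gene higher in the OFs, and Tgfb2 and Tgfbr2 were higher in SM. Each line gives the 250 bases before the annotated start in RefSeq GRCm38.p6, read 5′ to 3′ on the strand of the gene. Tgfb1 lies at chr7:25686752-25687001 on the plus strand, Tgfb2 at chr1:186705990-186706239 on the minus strand, and Tgfbr2 at chr9:116175364-116175613 on the minus strand. Capitals mark a GC box (GGGCGG, or CCGCCC on the other strand), a SMAD box (CAGAC or GTCTG) or a TATA box (TATAAA or TTTATA).
Tgfb1: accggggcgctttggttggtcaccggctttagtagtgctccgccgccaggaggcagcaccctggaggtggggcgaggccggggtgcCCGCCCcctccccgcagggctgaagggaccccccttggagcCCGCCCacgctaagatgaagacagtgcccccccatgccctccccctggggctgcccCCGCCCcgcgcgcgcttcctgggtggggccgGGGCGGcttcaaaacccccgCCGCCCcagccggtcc
Tgfb2: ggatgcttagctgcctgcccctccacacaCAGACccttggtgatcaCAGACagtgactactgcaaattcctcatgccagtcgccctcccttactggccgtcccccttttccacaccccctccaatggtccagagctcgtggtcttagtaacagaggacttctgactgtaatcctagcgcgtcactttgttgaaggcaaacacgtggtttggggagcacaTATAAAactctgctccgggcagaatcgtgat
Tgfbr2: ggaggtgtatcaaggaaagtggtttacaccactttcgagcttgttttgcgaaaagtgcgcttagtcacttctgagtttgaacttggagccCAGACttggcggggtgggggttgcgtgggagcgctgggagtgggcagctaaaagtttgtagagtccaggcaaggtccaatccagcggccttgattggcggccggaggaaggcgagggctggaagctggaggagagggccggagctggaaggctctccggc
The Tgfb1 window was 75.2% GC and held 5 GC boxes, and it held no SMAD box and no TATA box. The Tgfb2 window was 53.6% GC and held 2 SMAD boxes and 1 TATA box, and the Tgfbr2 window was 58.4% GC and held 1 SMAD box. Among 32851 windows of the same length, 32.7% held a GC box, 42.2% a SMAD box and 12.4% a TATA box. These letter matches describe the windows and were not tested for binding.

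Total counts of the 100 first libraries ranged from 7305627 to 34518477, with a median of 14244957. Coronal libraries held 20133332 to 34518477 counts, more than any other suture, against 7487020 to 18450955 for the frontal, 7305627 to 11294521 for the lambdoid and 13144810 to 17338803 for the sagittal suture. Despite this depth, 17274 to 22824 genes had a count in E16.5 coronal libraries, against 21967 to 28397 in the other sutures at that age. In E18.5 coronal libraries 21273 to 25162 genes had a count, so that in the coronal suture age and genes detected changed together. Ibsp, an osteoblast gene, ran from 0 to 661 CPM (counts of the gene per 1000000 counts of the library, scaled by TMM) in the 40 SM libraries and from 1007 to 20514 CPM in the 60 OF libraries. Marker genes of other cells also differed, and their part in the results below was not tested: summed osteoblast markers spanned 23.5 to 1053 CPM in SM and 2031 to 23569 CPM in OF, ectocranial mesenchyme markers 428 to 6628 against 169 to 4096 CPM, and dura mater markers 129 to 1067 against 34.6 to 394 CPM. In captured tissue, fewer cells of a type and less RNA per cell cannot be told apart. Unless another unit is named, levels are CPM and differences are log2 fold changes with the standard error (SE) and the Benjamini-Hochberg adjusted p of the edgeR quasi-likelihood test across all 19768 genes.

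To ask which genes of the pathway separate mesenchyme from front, SM was compared with OF as the mean of 8 suture and age pairs. Of the 10 genes, 7 were higher in SM and 1, Tgfb1, was lower, while Tgfbr1 and Skil did not pass the test. Of all genes tested, 55.4% passed, 27.6% higher and 27.8% lower, so that 8 of 10 stands against a background of over 1 gene in 2. Taken at each age, the mean called 8 genes at E16.5 (44.2% of all genes) and 7 at E18.5 (42.2%), where Tgfbi no longer passed (0.29, adjusted p = 0.201). The median difference of the 10 genes was 0.60, against 0.04 for all genes. Tgfbr2 had the largest positive difference, at 1.22 (SE 0.05, adjusted p = 1.07e-40), with mean levels of 205 CPM in SM and 89.7 CPM in OF. Per kilobase of exon, mean levels over the 20 groups ranged from 3.73 CPM per kb for Tgfb1 to 24.3 CPM per kb for Tgfb3, with Tgfbr2 at 16.7 and the others from 8.12 to 11.8 CPM per kb.

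Across the 12 single comparisons of SM with an OF of the same suture and age, 70 of 120 gene tests passed, against 19% of all gene tests, and in 69 the 5 SM and the 5 OF libraries did not overlap, against 17.6%. The share of members called was well above that background in the frontal suture at E16.5, with 6 of 10 genes against 7.91% of all genes, and in the lambdoid suture at E18.5 against the interparietal OF, with 8 of 10 against 19.6%. In the E18.5 coronal suture against the frontal OF, edgeR called 0 of 10 genes and 3.46% of all genes, with 7 of 10 at an unadjusted p below 0.05, while DESeq2 called 1 and limma-voom 3. At E16.5 the remaining comparisons called 5 genes against the coronal frontal OF (30.3% of all genes), 6 against the coronal parietal OF (35.6%), 6 against the lambdoid interparietal OF (11.2%), 6 against the lambdoid parietal OF (23.1%) and 7 in the sagittal suture (17.7%). At E18.5 they called 6 against the coronal parietal OF (18%), 7 in the frontal suture (11.1%), 6 against the lambdoid parietal OF (24.6%) and 7 in the sagittal suture (25.3%). The coronal and the lambdoid suture each gave 2 comparisons that shared the same SM libraries. Calls and overlap did not always go together. Against the E16.5 coronal frontal OF the libraries did not overlap for 1 of 10 genes, where 1.79% of all genes were higher and 2.48% lower without overlap. Against the E16.5 coronal parietal OF they did not overlap for 4 genes (2.82% and 4.32%), and in the E16.5 frontal suture for 8 (8.92% and 9.38%).

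**Figure D1:**
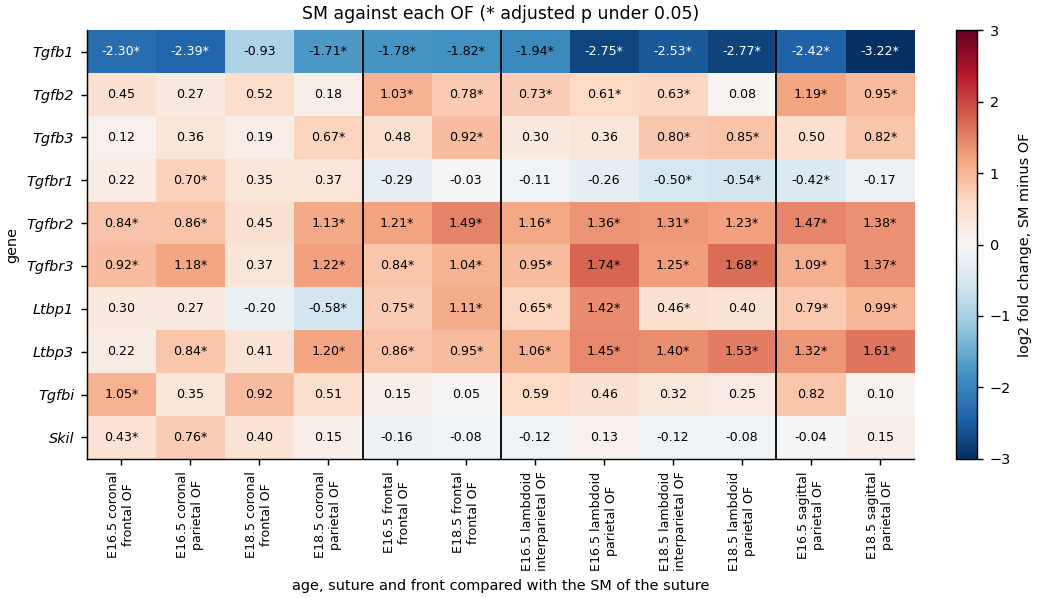
Log2 fold change of SM against each OF for the 10 genes (rows) in the 12 comparisons (columns, ordered by suture and then by age), coloured from blue (lower in SM) to red (higher in SM). An asterisk marks an adjusted p below 0.05. The Tgfb1 row is blue throughout, from -3.22 to -0.93, and the Tgfbr2 row red throughout, from 0.45 to 1.49.

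Among the ligands, Tgfb1, known for its store in bone matrix, was the ligand gene lower in SM. Tgfb1 (ENSMUSG00000002603.15, chromosome 7, 25687002 to 25705077, plus strand, mm10) averaged 5.79 CPM in SM and 27.0 CPM in OF, a difference of -2.24 (SE 0.11, adjusted p = 2.77e-34), or 4.71-fold lower. The difference held the same sign in 40 of 40 embryos and in 12 of 12 comparisons, of which 11 passed. The widest separation was in the E18.5 sagittal suture, where SM libraries measured 5.71, 2.95, 7.35, 3.12 and 2.80 CPM and parietal OF libraries 39.9, 43.9, 56.1, 31.1 and 32.7 CPM. No SM library there came near the lowest OF library, and the difference was -3.22 (SE 0.33, adjusted p = 7.30e-14). In the E18.5 coronal suture SM measured 10.5, 7.49, 13.8, 10.2 and 13.7 CPM and the frontal OF 13.5, 35.0, 21.2, 12.2 and 24.2 CPM. These libraries overlapped, with frontal OF replicates 1 and 4 within the SM range, and the difference of -0.93 (SE 0.30, adjusted p = 0.0646) did not pass. The parietal OF of the same suture lay higher, at 32.0 to 40.9 CPM, clear of the SM libraries (difference -1.71, adjusted p = 7.17e-06). Summed osteoblast markers were 2845 to 6692 CPM in that frontal OF and 6811 to 15219 CPM in the parietal OF.

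Tgfb2, a ligand that depends on TGFBR3 for receptor binding, was higher in SM than in OF by 0.71 (SE 0.07, adjusted p = 3.47e-16), with means of 57.5 and 37.2 CPM. Tgfb2 (ENSMUSG00000039239.14, chromosome 1, 186622792 to 186705989, minus strand) was higher in SM in 36 of 40 embryos and passed in 7 of 12 comparisons. In the E16.5 sagittal suture its SM libraries held 28.9, 32.3, 31.2, 34.7 and 36.1 CPM and its parietal OF libraries 11.9, 11.8, 14.97, 13.5 and 19.2 CPM. Every SM library exceeded every OF library, and the difference was 1.19 (SE 0.21, adjusted p = 4.53e-06). In the coronal suture none of the 4 comparisons passed, with differences of 0.18 to 0.52, although at E18.5 the mean levels there were the highest of any suture. E18.5 coronal SM held 91.9, 103, 86.0, 135 and 162 CPM and the parietal OF 94.0, 58.2, 84.7, 106 and 169 CPM. These groups overlapped across nearly their whole range (difference 0.18, SE 0.20, adjusted p = 0.618). The 3 lambdoid calls were narrow, since without replicate 2 or 4 of every group none of them passed (adjusted p from 0.0527 to 0.114), nor did the E18.5 frontal call without replicate 4 (adjusted p = 0.0798).

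Tgfb3, the third ligand, known for palate fusion and present in mesenchyme, was higher in SM by 0.57 (SE 0.06, adjusted p = 2.23e-13), with means of 104 and 68.4 CPM. Tgfb3 (ENSMUSG00000021253.7, chromosome 12, 86056745 to 86079041, minus strand) was higher in SM in 38 of 40 embryos. None of its 6 comparisons passed at E16.5, and 5 of 6 passed at E18.5. The E18.5 frontal suture gave the largest difference, 0.92 (SE 0.19, adjusted p = 2.35e-04), from SM libraries at 138, 179, 137, 156 and 130 CPM and OF libraries at 97.4, 53.6, 115, 94.8 and 31.3 CPM. The OF libraries spread widely but stayed below all 5 SM libraries. The E18.5 call against the coronal parietal OF (0.67, adjusted p = 0.00684) was lost without replicate 1 of every group (adjusted p = 0.0534). The change of the SM difference between the ages, averaged over the 4 sutures, was 0.36 (SE 0.13, adjusted p = 0.203) and did not pass, but with the embryo as a block it was 0.41 (adjusted p = 0.0304). The block also added calls for Tgfb3 at E16.5 in the frontal suture (0.48, adjusted p = 0.0399) and the sagittal suture (0.50, adjusted p = 0.0172). Reads of Tgfb3 cannot be fully separated from overlapping transcripts, since 12.4% of its exon bases lie over Gm37804 and Gm48008 on the other strand and the counting did not use strand.

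**Figure D2:**
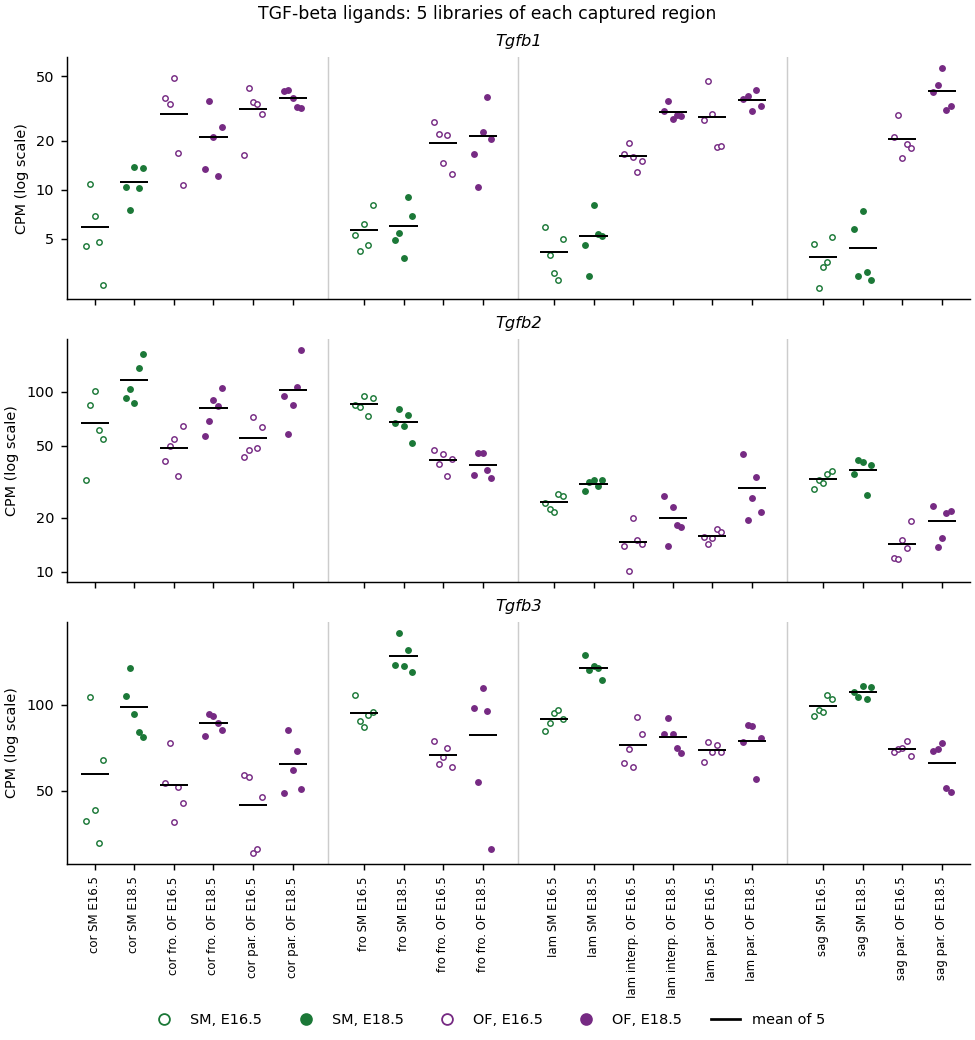
CPM of Tgfb1, Tgfb2 and Tgfb3 (log axis) in each of the 100 first libraries, by group (cor., coronal, fro., frontal, lam., lambdoid, sag., sagittal, interp., interparietal, par., parietal), with 5 points per group and a bar at the group mean. Tgfb1 SM points lie between 2.47 and 13.8 CPM and OF points between 10.4 and 56.1 CPM, whereas Tgfb2 and Tgfb3 points of SM and OF share most of their range.

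Among the receptors, Tgfbr2 and Tgfbr3 were higher in SM nearly everywhere and Tgfbr1 was not. Tgfbr2 (ENSMUSG00000032440.13, chromosome 9, 116084293 to 116175360, minus strand), the ligand-binding type II receptor, was higher in SM in 40 of 40 embryos and passed in 11 of 12 comparisons, with no overlap of libraries in the same 11. In the E18.5 frontal suture its SM libraries measured 284, 340, 322, 305 and 286 CPM and its OF libraries 121, 78.3, 130, 90.3 and 127 CPM. Every SM library held more than the highest OF library by a wide margin, and the difference was 1.49 (SE 0.15, adjusted p = 8.53e-14). The exception was the E18.5 coronal suture against the frontal OF, where SM measured 245, 263, 205, 197 and 174 CPM and the OF 145, 149, 173, 153 and 174 CPM. Here the lowest SM and the highest OF library met (difference 0.45, SE 0.14, adjusted p = 0.0633), and with the embryo as a block the same difference passed (0.45, adjusted p = 0.0463).

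Tgfbr3 (ENSMUSG00000029287.14, chromosome 5, 107106570 to 107289629, minus strand), the coreceptor betaglycan, was higher in SM by 1.12 (SE 0.08, adjusted p = 9.92e-25), with means of 95.4 and 44.1 CPM. It was higher in 39 of 40 embryos and passed in 11 of 12 comparisons. The E16.5 lambdoid suture gave the largest difference, with SM libraries at 101, 87.9, 103, 110 and 103 CPM and parietal OF libraries at 23.7, 32.5, 26.2, 32.6 and 36.1 CPM. SM was thus far above OF in each embryo, by 1.74 (SE 0.24, adjusted p = 3.18e-09). The call in the E16.5 frontal suture was lost without replicate 1 of every group (adjusted p = 0.0749), and that against the E16.5 coronal frontal OF without replicate 5 (adjusted p = 0.0597).

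Tgfbr1 (ENSMUSG00000007613.15, chromosome 4, 47353222 to 47414931, plus strand), the signalling type I receptor, averaged 66.4 CPM in SM and 64.5 CPM in OF, with a difference of -0.10 (SE 0.05, adjusted p = 0.0916). The difference is a mean of log2 ratios over the 8 pairs and the levels are means of CPM, so the signs can part where sutures differ in level and direction. SM was higher in 10 of 10 coronal embryos but in 2 of 10 frontal, 1 of 10 lambdoid and 0 of 10 sagittal embryos. In the E16.5 coronal suture SM libraries held 140, 110, 149, 160 and 191 CPM and parietal OF libraries 99.3, 96.0, 72.1, 68.4 and 127 CPM, a difference of 0.70 (SE 0.15, adjusted p = 1.48e-04). Only SM replicate 2 fell within the OF range. In the E18.5 lambdoid suture SM held 35.9, 45.5, 37.2, 36.7 and 31.3 CPM and the parietal OF 50.6, 52.5, 53.2, 54.1 and 60.7 CPM, a difference of -0.54 (SE 0.15, adjusted p = 0.00523). SM was below every OF library there, though the call was lost without replicate 3 or 5 of every group (adjusted p = 0.0501 in each case). The call against the E18.5 interparietal OF (-0.50, adjusted p = 0.0127) was lost without replicate 1, 3 or 5 (adjusted p from 0.0671 to 0.170). The E16.5 sagittal call (-0.42, adjusted p = 0.0438) was lost without replicate 1, 3, 4 or 5 and under DESeq2 and limma-voom, and the mean difference was 0.01 when libraries were scaled by total counts alone.

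Both latent binding proteins were higher in SM, with an exception in the coronal suture. Ltbp3 (ENSMUSG00000024940.11, chromosome 19, 5740904 to 5758532, plus strand), known to be needed for normal bone and tooth growth, averaged 159 CPM in SM and 72.7 CPM in OF, a difference of 1.099 (SE 0.06, adjusted p = 1.81e-29). It was higher in 39 of 40 embryos and passed in 10 of 12 comparisons. In the E18.5 sagittal suture SM measured 213, 184, 221, 224 and 265 CPM and the parietal OF 96.9, 50.5, 86.2, 66.1 and 61.996 CPM. The groups were far apart, with a difference of 1.61 (SE 0.19, adjusted p = 3.85e-11). Against the E18.5 coronal frontal OF, at 98.2 to 122 CPM, the SM libraries at 128 to 177 CPM also did not overlap, yet the difference of 0.41 (SE 0.19, adjusted p = 0.300) did not pass.

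Ltbp1 (ENSMUSG00000001870.16, chromosome 17, 75005568 to 75392512, plus strand), which binds all TGF-beta isoforms to the matrix, was higher in SM by 0.63 (SE 0.05, adjusted p = 8.03e-19), with means of 160 and 101 CPM. Outside the coronal suture SM was higher in 30 of 30 embryos, and in the coronal suture in 5 of 10. The E18.5 frontal suture showed the usual direction, with SM at 264, 265, 267, 251 and 281 CPM and OF at 134, 130, 121, 102 and 128 CPM (difference 1.11, SE 0.16, adjusted p = 9.65e-08). In the E18.5 coronal suture SM held 108, 74.8, 103, 97.7 and 67.9 CPM and the parietal OF 115, 158, 153, 128 and 120 CPM, so that every SM library was below every OF library. That difference, -0.58 (SE 0.16, adjusted p = 0.00543), was the only call of a lower level in SM for Ltbp1. It was lost without replicate 2 (adjusted p = 0.0801) or replicate 5 (adjusted p = 0.0627) of every group and under scaling by total counts (adjusted p = 0.289). The call of a higher level against the E18.5 lambdoid interparietal OF (0.46, adjusted p = 0.0340) was lost without replicate 3, 4 or 5 (adjusted p from 0.0558 to 0.138), and with the embryo as a block the parietal OF of that suture was also called (0.41, adjusted p = 0.0307). Summed ectocranial markers in the E18.5 coronal groups overlapped, at 429 to 707 CPM in SM and 342 to 1158 CPM in the parietal OF, whereas in the E18.5 frontal suture they were 5208 to 6628 CPM in SM and 1118 to 4096 CPM in OF.

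**Figure D3:**
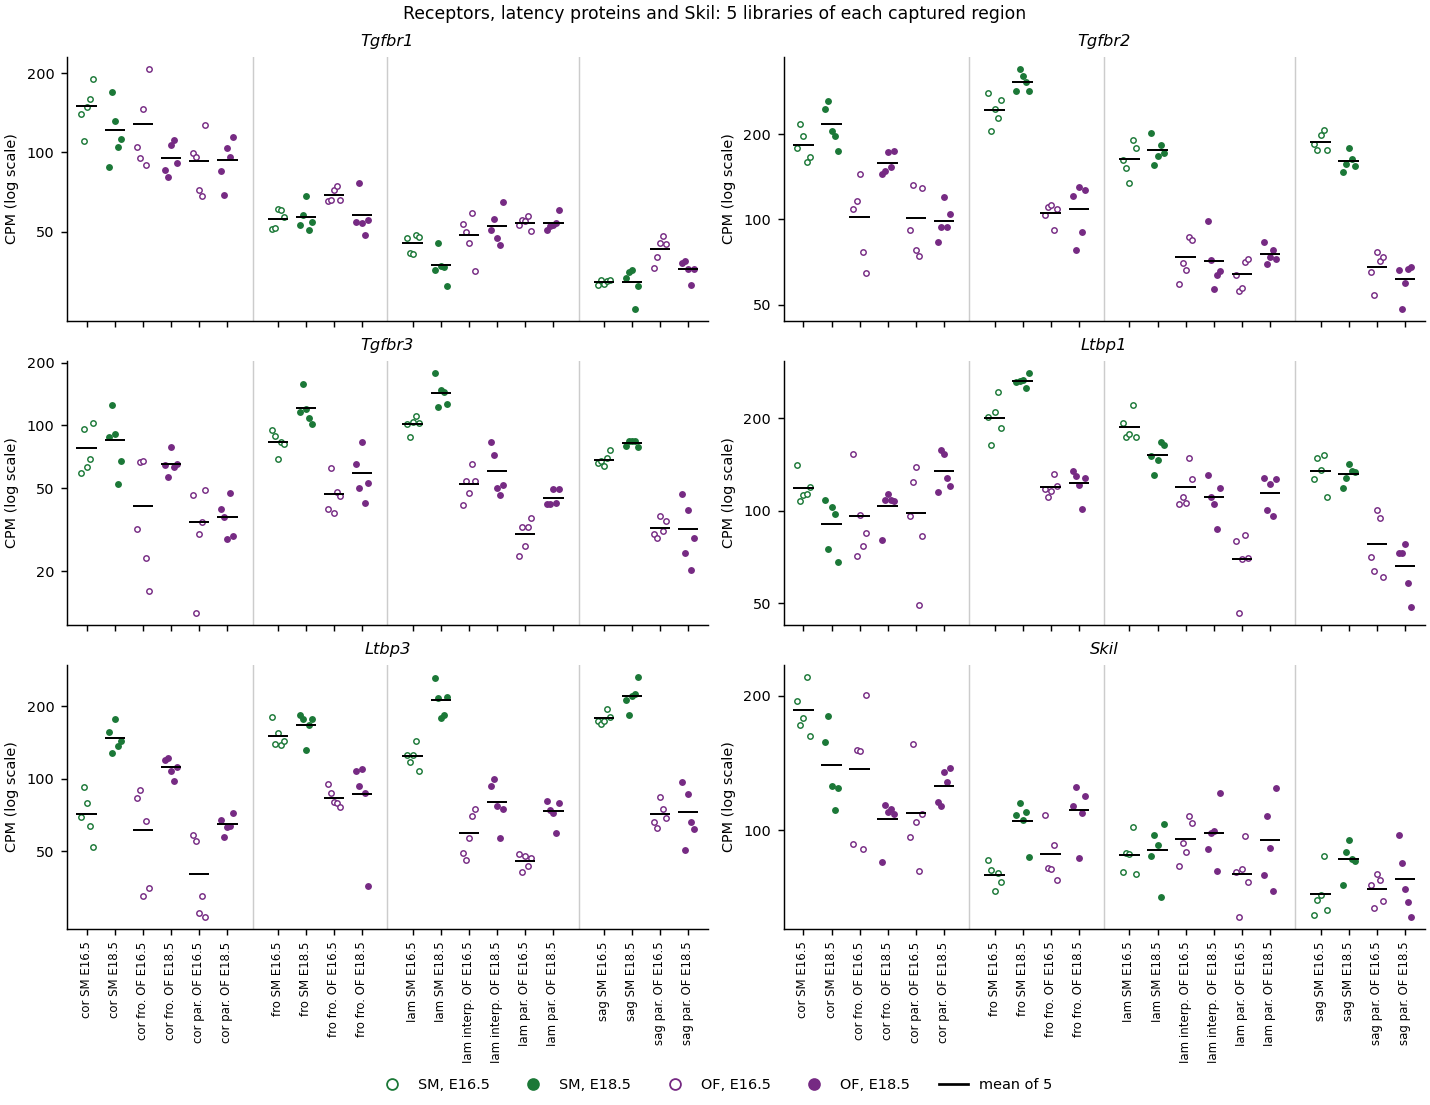
CPM (log axis) of the receptor genes Tgfbr1, Tgfbr2 and Tgfbr3 and of the latency genes Ltbp1 and Ltbp3, and of Skil, in each of the 100 first libraries, by group, with 5 points per group and a bar at the mean. Tgfbr2 SM points run from 135 to 340 CPM and OF points from 48.2 to 174 CPM, and Tgfbr1 is highest in the E16.5 coronal SM at a mean of 150 CPM.

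Tgfbi (ENSMUSG00000035493.10, chromosome 13, 56609523 to 56639562, plus strand), a secreted matrix protein named for its induction by TGF-beta, was higher in SM in 30 of 40 embryos and positive in 12 of 12 comparisons. Its mean difference was 0.42 (SE 0.13, adjusted p = 0.00345), from 47.1 against 33.3 CPM, and limma-voom gave 0.33 (adjusted p = 0.0827), which did not pass. In the same edgeR comparison 8 of 9 macrophage markers were higher in SM, and 5 of 7 chondrocyte markers were higher and 1 lower. Likewise 7 of 9 dura mater markers were higher, and 5 of 8 suture mesenchyme markers were higher and 1 lower. Of all genes 27.6% were higher and 27.8% lower, and the part of these cells was not tested. For Tgfbi, only 1 of 12 single comparisons passed, as follows. The comparison that passed was the E16.5 coronal suture against the frontal OF (1.05, SE 0.39, adjusted p = 0.0318). That call was lost with the embryo as a block (0.51, adjusted p = 0.323), and without replicate 2 (adjusted p = 0.180) or replicate 3 (adjusted p = 0.356) of every group. Skil (ENSMUSG00000027660.16, chromosome 3, 31095058 to 31122577, plus strand), the SMAD corepressor, had a mean difference of 0.08 (SE 0.05, adjusted p = 0.138) and was higher in SM in 20 of 40 embryos, 9 of them among the 10 coronal ones. In the E16.5 coronal suture its SM libraries held 195, 173, 178, 221 and 163 CPM and its parietal OF libraries 96.7, 156, 104, 81.3 and 109 CPM. There SM exceeded OF in every library (0.76, SE 0.15, adjusted p = 1.74e-05). The mean Skil difference did pass under DESeq2 (adjusted p = 0.00467), under scaling by total counts (adjusted p = 3.86e-04) and without replicate 5 of every group (adjusted p = 0.0158).

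To see whether the SM difference was shared by the sutures, an F test compared the 4 suture means. It passed for 7 of 10 genes, against 20% of all genes. For Tgfb1 the SM difference was -1.83 in the coronal, -1.80 in the frontal, -2.50 in the lambdoid and -2.82 in the sagittal suture (adjusted p = 0.00781). For Tgfbr2 it was 0.82, 1.35, 1.26 and 1.42 in the same order (adjusted p = 8.22e-04), so that the coronal difference was the smallest. Ltbp1, with -0.05, 0.93, 0.73 and 0.89 (adjusted p = 6.87e-08), and Ltbp3, with 0.66, 0.90, 1.36 and 1.47 (adjusted p = 2.81e-04), were likewise least separated in the coronal suture. Tgfb2, with 0.36, 0.91, 0.51 and 1.07, also passed (adjusted p = 0.00813). Tgfbr1 and Skil were positive in the coronal suture and near or below 0 elsewhere, with 0.41, -0.16, -0.35 and -0.29 for Tgfbr1 (adjusted p = 6.71e-06) and 0.44, -0.12, -0.05 and 0.06 for Skil (adjusted p = 0.00226). Tgfb3 (adjusted p = 0.347), Tgfbr3 (0.165) and Tgfbi (0.619) did not pass this edgeR F test, though Tgfbr3 did without replicate 2 of every group (0.0390). The call for Tgfb1 was lost without replicate 2 of every group (adjusted p = 0.0982), that for Tgfb2 without replicate 1 or 3 (0.0543 and 0.0567), that for Skil without replicate 1 (0.0906), and that for Tgfbr2 without the E18.5 coronal frontal OF libraries (0.0965). The coronal libraries were deeper than all others, and at E16.5 most of them had fewer genes with a count. For the coronal suture, depth, genes detected and suture therefore cannot be told apart. The depths of the lambdoid and sagittal libraries did not overlap either. Of the 17 litters 3 gave embryos to more than 1 suture, so for all 4 sutures suture and litter cannot be fully told apart. The labels do not say whether libraries of different sutures were prepared together. Summed ectocranial markers were 428 to 973 CPM in coronal SM and 2538 to 6628 CPM in the SM of the other sutures. Summed dura mater markers were 129 to 181 and 359 to 1067 CPM in the same order. The part of these markers was not tested.

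The comparison of E18.5 with E16.5 asked how the genes moved over the last days before birth. On average over the 4 SM regions, 4 of 10 genes rose and 0 fell, where 11.1% of all genes passed (5.14% up and 5.92% down), and over the OFs 4 rose and 0 fell, where 12.2% passed (6.05% up and 6.14% down). Tgfbi rose in both, by 1.68 in SM (SE 0.20, adjusted p = 1.03e-10) and by 1.95 in OF (SE 0.17, adjusted p = 2.48e-15). Ltbp3 rose by 0.57 in SM (adjusted p = 2.76e-06) and by 0.35 in OF (adjusted p = 0.00105). Tgfb3 rose in SM by 0.55 (adjusted p = 7.24e-06) and Tgfbr3 in SM by 0.35 (adjusted p = 0.0281), a call lost without replicate 1, 2, 3 or 4 of every group (adjusted p from 0.0578 to 0.145). In the OFs Tgfb2 rose by 0.45 (adjusted p = 1.29e-04), and Tgfb1 by 0.41 (adjusted p = 0.0220), a call lost without replicate 3, 4 or 5 of every group (adjusted p from 0.0876 to 0.137). Summed osteoblast markers were 5671 to 10077 CPM at E16.5 and 12029 to 23569 CPM at E18.5 in the sagittal parietal OF. They also rose without overlap in the lambdoid interparietal OF. In the coronal frontal OF they fell, from 7569 to 15638 CPM at E16.5 to 2845 to 6692 CPM at E18.5, and in the other OFs the ages overlapped. The part of these markers was not tested. Without replicate 2, rises of Tgfb1 in SM (0.51, adjusted p = 0.0281) and Tgfbr3 in OF (0.33, adjusted p = 0.0186) and falls of Tgfbr1 in SM (-0.25, adjusted p = 0.0368) and OF (-0.20, adjusted p = 0.0472) were called as well, as was a rise of Tgfb3 in OF without replicate 5 (0.27, adjusted p = 0.0447). The SM difference itself was called different between the ages for 0 of 10 genes by edgeR, against 0.703% of all genes, with 1 gene, Tgfb3, at an unadjusted p below 0.05 and 0 genes under DESeq2 and under limma-voom.

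Calls with age were most frequent in the coronal suture and for Tgfbi, whereas groups without overlap were mostly found in the other sutures. Each call rests on a spread shared by all 20 groups, not on that of the groups compared. Over the 10 regions 27 of 100 gene tests passed, against 8.57% of all gene tests, and in 28 the libraries of the ages did not overlap, against 7.17%. The count of calls was 16 without replicate 4 of every group and 17 without replicate 5. The 30 coronal tests gave 18 calls, where 24% of all gene tests passed, and 6 pairs of groups without overlap, against 6.8%. The 70 tests of the other sutures gave 9 calls, against 1.95%, and 22 pairs without overlap, against 7.32%. In the coronal suture 6 genes were called in SM (27.1% of all genes), 8 in the frontal OF (24.4%) and 4 in the parietal OF (20.6%). Elsewhere there were 1 in frontal SM (2.33%), 2 in lambdoid SM (2.96%), 1 in the interparietal OF (0.288%), 3 in the lambdoid parietal OF (0.986%), 1 in sagittal SM (1.12%) and 1 in the sagittal OF (1.6%). Tgfbi accounted for 8 of the 27 calls. In coronal SM, Tgfbi measured 0.252, 37.3, 27.7, 9.12 and 7.56 CPM at E16.5 and 155, 165, 227, 203 and 311 CPM at E18.5. The E16.5 libraries were uneven, replicate 1 being near 0, but all lay far below the E18.5 libraries (difference 3.69, SE 0.42, adjusted p = 7.15e-11). The coronal frontal OF rose from 2.66 to 13.5 CPM at E16.5 to 68.2 to 176 CPM at E18.5 (3.82, SE 0.42, adjusted p = 3.50e-11), and the parietal OF from 3.03 to 30.01 CPM to 69.2 to 230 CPM (3.53, SE 0.42, adjusted p = 6.26e-10).

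In the lambdoid suture Tgfbi rose by 1.57 in SM, 1.84 in the interparietal OF and 1.78 in the parietal OF, and in the sagittal suture by 1.63 in SM and 2.35 in the parietal OF. Sagittal parietal OF libraries moved together from 6.21, 6.68, 8.11, 6.97 and 5.90 CPM to 31.0, 38.4, 35.1, 35.9 and 32.9 CPM (adjusted p = 4.99e-05). In the frontal suture the SM libraries held 15.2, 33.5, 18.9, 18.3 and 19.1 CPM at E16.5 and 18.48, 18.8, 14.1, 20.3 and 23.0 CPM at E18.5. The frontal groups overlapped, with differences of -0.15 (SE 0.39, adjusted p = 0.975) in SM and -0.04 (SE 0.39, adjusted p = 0.981) in OF. An F test among the sutures, chosen after these values were seen, gave mean changes of 3.68, -0.09, 1.73 and 1.99 for the coronal, frontal, lambdoid and sagittal sutures (adjusted p = 3.81e-13). Limma-voom did not call the 3 lambdoid changes or the sagittal SM change (adjusted p from 0.0654 to 0.377), and without replicate 4 of every group edgeR did not call them either (adjusted p from 0.0550 to 0.190). The lambdoid SM call was also lost without replicate 1, the interparietal call without replicate 3 or 5, and the sagittal SM call without replicate 2, 3 or 5.

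Markers of other cells moved with Tgfbi in places. Summed macrophage markers in coronal SM were 43.2 to 93.7 CPM at E16.5 and 176 to 302 CPM at E18.5, with 9 of 9 markers called higher, and 7 of 9 were called higher in the coronal frontal OF and 2 of 9 in the coronal parietal OF. In frontal SM, where Tgfbi did not change by the test, the macrophage sum was 223 to 386 CPM at E16.5 and 354 to 440 CPM at E18.5. In every lambdoid and sagittal region, where Tgfbi was called higher, the macrophage sums of the ages overlapped. They were 140 to 171 and 157 to 184 CPM in sagittal SM, and 151 to 194 and 114 to 213 CPM in the sagittal parietal OF. In the lambdoid parietal OF they were 118 to 214 and 159 to 216 CPM. Summed chondrocyte markers in coronal SM were 92.9 to 127 CPM at E16.5 and 249 to 335 CPM at E18.5, although 1 of 7 markers was called higher. Suture mesenchyme markers there were 2427 to 3075 and 2513 to 3163 CPM, and dura mater markers 129 to 180 and 150 to 181 CPM. The part of these cells in the Tgfbi levels was not tested.

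**Figure D4:**
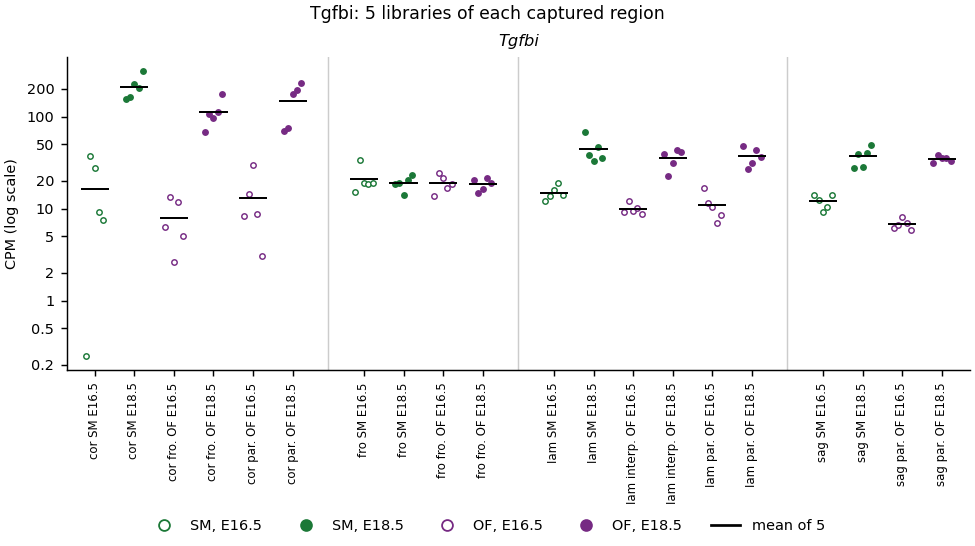
CPM of Tgfbi (log axis) in each of the 100 first libraries, by region, with E16.5 and E18.5 side by side, 5 points per group and a bar at the mean. The E18.5 points lie above all E16.5 points in the 8 coronal, lambdoid and sagittal regions and among them in both frontal-suture regions.

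For the 9 genes other than Tgfbi, 15 of 27 coronal tests and 4 of 63 tests of the other sutures were called (24% and 1.95% of all gene tests), whereas the ages did not overlap in 3 of 27 and 17 of 63 (6.8% and 7.32%). Ltbp3 rose in coronal SM from 52.2 to 92.6 CPM at E16.5 to 128 to 177 CPM at E18.5, without overlap (1.05, SE 0.19, adjusted p = 1.38e-05), and in lambdoid SM by 0.77 (SE 0.19, adjusted p = 0.00689). Tgfb2 rose in all 3 coronal regions, by 0.80, 0.73 and 0.90 in SM, frontal OF and parietal OF (adjusted p = 0.00182, 0.00547 and 7.86e-04), though the SM call was lost without replicate 5 of every group (adjusted p = 0.0537) and the frontal OF call without replicate 4 (0.0670). Tgfbr2 rose in the coronal frontal OF by 0.63 (SE 0.15, adjusted p = 6.42e-04), where 5 of 9 endothelial markers were called higher as well and their sum went from 157 to 348 CPM at E16.5 to 198.4 to 455 CPM at E18.5. Tgfb3 rose in frontal SM from 83.8 to 109 CPM at E16.5 to 130 to 179 CPM at E18.5 (0.67, SE 0.19, adjusted p = 0.0371), where the ectocranial marker sum was 2538 to 3817 and 5208 to 6628 CPM, with 3 of 8 markers called higher. The part of these marker changes was not tested. Skil fell by 0.41 in coronal SM (SE 0.14, adjusted p = 0.0270), with overlapping libraries, and the call was lost without replicate 3 (adjusted p = 0.0799) or 4 (0.177) of every group, with the second libraries (0.435) and under scaling by total counts (0.780). Tgfbr1 fell by 0.44 and Skil fell by 0.38 in the coronal frontal OF (adjusted p = 0.0251 and 0.0471), calls lost without replicates 3 or 5 for Tgfbr1 and without replicates 2, 3 or 5 for Skil, and under scaling by total counts both changes were positive, at 0.11 and 0.14. In the frontal OF of the frontal suture edgeR called 0 of 10 genes and 4.34% of all genes, with 1 gene at an unadjusted p below 0.05 and 0 genes under DESeq2 and under limma-voom. Among the sutures the age change also differed, by the same F test, for Tgfb2 (adjusted p = 5.83e-05), Tgfb3 (0.00972), Tgfbr2 (0.0219), Ltbp3 (1.82e-04) and Skil (0.00316), 6 of 10 genes with Tgfbi, against 33.4% of all genes.

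The coronal and lambdoid sutures each join different bones, so their fronts were compared with each other. Over 4 comparisons 6 of 40 gene tests passed, against 5.09% of all gene tests, and in 6 the libraries did not overlap, against 2.75%. Without replicate 3 of every group 3 tests passed. At E18.5 the coronal frontal OF exceeded the parietal OF in Tgfbr2, at 145, 149, 173, 153 and 174 CPM against 82.9, 94.0, 120, 94.1 and 105 CPM, without overlap (0.68, SE 0.15, adjusted p = 9.23e-04). Tgfbr3 (0.85, SE 0.23, adjusted p = 0.0115) and Ltbp3 (0.79, SE 0.19, adjusted p = 0.00395) were also higher in that frontal OF, 3 of 10 genes against 5.44% of all genes, and the Tgfbr3 call was lost without replicate 3 of every group (adjusted p = 0.107). All 3 are genes that were higher in SM, and summed dura mater markers were 135 to 291 CPM in that frontal OF and 46.5 to 82.0 CPM in the parietal OF, and summed endothelial markers 198.4 to 455 and 70.5 to 115 CPM. At E16.5 Tgfbr1 (0.47, adjusted p = 0.0231) and Ltbp3 (0.62, adjusted p = 0.0183) were higher in the coronal frontal OF, against 14.4% of all genes, with overlapping libraries, and each call was lost when replicates 3 or 5 and replicates 2 or 4, in that order, were left out. In the E16.5 lambdoid suture Ltbp1 held 105, 111, 106, 149 and 127 CPM in the interparietal OF and 79.6, 46.5, 69.6, 83.6 and 70.0 CPM in the parietal OF, 1 call of 10 where 0.486% of all genes passed (0.78, SE 0.16, adjusted p = 0.00569). The Ltbp1 call was lost without replicate 2 (adjusted p = 0.151) or 3 (adjusted p = 0.0519) of every group. In the E18.5 lambdoid suture edgeR called 0 of 10 genes and 0.0101% of all genes, with 1 gene at an unadjusted p below 0.05 and 0 genes under DESeq2 and under limma-voom. With the embryo as a block 8 front tests passed, the added ones being Tgfb1 (-0.85, adjusted p = 0.0496) and Tgfb3 (0.50, adjusted p = 0.0412) in the E18.5 coronal suture.

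The wider pathway was read from 6 lists of 44 other genes, of which 42 were tested and Itgb6 and Foxh1 were not. These lists too were chosen with earlier results of these data known, so their counts are a description. In the mean SM and OF comparison 26 were higher in SM, 10 lower and 6 not called, with a median of 0.27 against 0.04 for all genes, of which 27.6% were higher and 27.8% lower. Of the genes for ligand processing and matrix storage, 7 of 8 were higher and 0 lower, among them Ltbp2 (1.95, adjusted p = 2.95e-22), the fibrillin gene Fbn2 (1.77, adjusted p = 1.99e-31) and Lrrc32, which holds latent ligand at the cell surface (1.17, adjusted p = 2.09e-15). Of the genes for activation of the latent complex, 4 of 7 were higher and 2 lower, and the largest changes were in Thbs1, which encodes the activator thrombospondin (1.42, adjusted p = 2.35e-33), and the integrin genes Itgb8 (0.61, adjusted p = 5.31e-04) and Itgb5 (0.57, adjusted p = 3.44e-12). Accessory receptors split, with 2 of 4 higher, led by the endothelial type I receptor gene Acvrl1 (0.66, adjusted p = 1.31e-06), and 2 lower, Cd109 (-0.64, adjusted p = 1.10e-15) and Vasn (-0.38, adjusted p = 2.59e-06), whose products bind TGF-beta. Of the SMAD mediators and partners, 3 of 5 were higher and 1 lower, all by less than 0.35, with Tgfb1i1 at 0.34, Smad3 at -0.27 and Zfyve9 at 0.16.

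The inhibitors and the induced genes were mixed. Of 8 inhibitors, 5 were higher and 1 lower in SM. The lower one was Bambi, a decoy receptor, at 9.36 CPM in SM and 56.8 CPM in OF (-2.54, SE 0.09, adjusted p = 3.00e-43), while the corepressor gene Ski was higher (0.57, adjusted p = 9.08e-17), as was Tgif2 (0.48, adjusted p = 0.0164), a call lost without replicate 1 or 3 of every group. Of 10 genes known to be induced by TGF-beta, 5 were higher and 4 lower in SM, and those named for the largest differences were lower. Cdkn2b, a cell-cycle inhibitor gene, averaged 0.126 CPM in SM and 0.550 CPM in OF (-2.50, adjusted p = 5.56e-07), and Timp1, a metalloproteinase inhibitor gene, 15.6 and 63.8 CPM (-1.96, adjusted p = 1.04e-34). The call for Cdkn2b, near the limit of detection, was lost without replicate 1 of every group (adjusted p = 1.00). Postn, among the 5 higher ones, averaged 1441 CPM in SM and 914 CPM in OF (0.66, adjusted p = 1.86e-16). The induced genes also answer to other signals and are not a measure of TGF-beta alone.

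With age, 7 of the 42 listed genes rose and 1 fell in SM, where 5.14% of all genes rose and 5.92% fell, and 14 rose and 2 fell in OF, where 6.05% rose and 6.14% fell. In SM the largest changes were a rise of Ltbp2 (0.96, adjusted p = 6.28e-04), a rise of Vasn (0.61, adjusted p = 1.27e-05) and a fall of Itgb8 (-0.77, adjusted p = 0.0226), which was lost without replicate 2, 4 or 5 of every group (adjusted p from 0.0600 to 0.134). Among the induced genes 5 of 10 rose in OF, with a median of 0.76 against 0.01 for all genes, among them the matrix gene Postn (0.89, SE 0.08, adjusted p = 1.03e-14). In SM 1 of 10 rose, Postn (0.36, adjusted p = 0.00577), a call lost without replicate 2 or 3 of every group (adjusted p = 0.0925 and 0.104). Other named rises in OF were in Lrrc32 (0.62), Ltbp2 (0.58), Cd109 (0.50), Ski (0.39), Itgb5 (0.34) and Tgfb1i1 (0.25), and Itgb8 fell by 0.71. Of these, Ltbp2 was not called without replicate 1, 3, 4 or 5 of every group nor without the E18.5 coronal frontal OF (adjusted p from 0.0605 to 0.341), and Itgb5, Itgb8 and Tgfb1i1 each lost the call without at least 1 replicate (adjusted p from 0.0581 to 0.111). In SM, Itgb5 (0.40), Cd109 (0.36), Smurf2 (0.32) and Ski (0.26) rose as well, and each of these but Smurf2 lost the call without at least 1 replicate (adjusted p from 0.0604 to 0.113).

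The order of the 20 groups differed from gene to gene, and neighbouring groups in it mostly overlapped. Tgfb1 ran from a mean of 3.83 CPM in E16.5 sagittal SM to 40.7 CPM in the E18.5 sagittal parietal OF, and Tgfbi, with the widest range, from 6.77 CPM in the E16.5 sagittal parietal OF to 212 CPM in E18.5 coronal SM. Skil had the narrowest range, from 72.1 CPM in E16.5 sagittal SM to 186 CPM in E16.5 coronal SM. For 7 of the 10 genes the libraries of all 19 pairs of neighbouring groups overlapped, against 18 for Tgfb3 and 17 for Tgfbr2 and for Ltbp1. The genes whose group means followed each member most closely, over 20 groups and 11393 genes of at least 5 CPM, are given as a description, since all groups share libraries, depth and sutures between genes. Tgfb1 was followed by Lrrfip1 (r = 0.986) and Cd200 (r = 0.962), Tgfb2 by Gpm6b (0.936) and Postn (0.934), and Tgfb3 by BC034090 (0.936) and Anks6 (0.909). The receptors were followed by Pds5a (0.957) and Ptbp3 (0.957) for Tgfbr1, Jcad (0.968) and Zfp46 (0.963) for Tgfbr2, and Cdon (0.949) and Adcy4 (0.943) for Tgfbr3. The remaining pairs were Zmym3 (0.860) and Stard9 (0.859) for Ltbp1, Mn1 (0.956) and Col27a1 (0.949) for Ltbp3, Rassf5 (0.934) and Arntl (0.883) for Tgfbi, and Supt20 (0.937) and Slc35a5 (0.931) for Skil.

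Second libraries of 18 coronal samples held the members at other levels than the first libraries of the same samples, with all captured libraries scaled together by TMM for these values and for those of the complete sutures. In 3 embryos per region and age, Tgfb1 measured 11.1 to 36.5 CPM in SM and 27.4 to 56.7 CPM in OF where the first libraries held 4.44 to 13.7 and 13.5 to 49.5 CPM. Tgfbi measured 12.6 to 48.8 CPM at E16.5 and 83.3 to 326 CPM at E18.5, without overlap, and the E16.5 SM sample that held 0.250 CPM in its first library held 14.8 CPM in its second. Tgfbr1 in E16.5 SM was 73.4 to 86.6 CPM in the second libraries and 110 to 149 CPM in the first, and in the parietal OF 58.1 to 62.3 and 72.9 to 99.8 CPM. SM thus stayed above the parietal OF in both sets, while the level itself changed with the library. At E16.5 the second libraries had 20476 to 23357 genes with a count, and the first libraries of the same samples 17274 to 21660.

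Complete E18.5 sutures were deposited as 16 libraries labelled normalization controls, in 4 sets of 1 library per suture, and are given as values with no test. The set codes C, IF, L and S are also the suture codes in the titles of the captured libraries. What the sets stand for is not given in the labels. All 16 are labelled replicate 1, and the labels do not say whether the sets came from different tissue, so they may not be independent. In all 4 sets the coronal suture held the most Tgfb1 (29.5 to 48.6 CPM, against 7.99 to 29.3 CPM in the other sutures), Tgfbr1 (103 to 153 against 47.1 to 83.2 CPM) and Skil (131 to 148 against 82.7 to 124 CPM). The frontal suture held the most Tgfb2, at 69.5 to 90.6 CPM, and the coronal suture the least, at 38.1 to 46.5 CPM. This order was the opposite of that in captured E18.5 SM, where Tgfb2 averaged 116 CPM in the coronal and 67.5 CPM in the frontal suture. The sagittal suture held the most Tgfbr2, Ltbp1 and Ltbp3 in all 4 sets. Tgfbi was highest in the lambdoid suture in all 4 sets, at 93.9 to 119 CPM. It was 89.6 to 107 CPM in the coronal and 40.3 to 57.8 CPM in the frontal and sagittal sutures. In captured E18.5 tissue, by contrast, every coronal region had a higher Tgfbi mean than every lambdoid region, with coronal SM at 212 CPM.

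The single-cell libraries of the coronal suture placed the genes in cell classes. After filtering, the E16.5 libraries held 466 and 337 cells, at median depths of 2501 and 2121 unique molecular identifiers (UMIs) per cell. The E18.5 libraries held 2412 cells at a median of 18476 UMIs and 1577 cells at a median of 7131 UMIs. Age and 10x chemistry differed together, so the ages are not compared. Values are CPM, here the UMIs of a gene over all UMIs of a class, for library 1 and library 2, and the intervals are exact 95% Poisson intervals that cover counting error only. The libraries shared 0 of 3012 barcodes at E16.5 and 4 of 4627 at E18.5, and no doublet caller was run. As a gauge of free RNA, Ibsp was at 10950 and 16570 CPM in E18.5 osteoblast-like cells and between 233 and 1461 in the other classes present in both libraries.

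Tgfb1 was highest at E18.5 in osteoblast-like cells, at 318 CPM (297 to 340) in library 1 and 199 (184 to 215) in library 2. Endothelial-like cells lay lower, with an interval of 175 to 223 in library 1 and at 128 (93.6 to 172) in library 2. Macrophage-like cells were at 204 (193 to 216) and 89.2 (71.8 to 109.5), and suture mesenchyme-like cells at 130 and 107. The largest cluster, of 692 cells and left unnamed, was at 117 in library 1. Of the classes present in both libraries, ectocranial mesenchyme-like cells were lowest at 31.5 (28.5 to 34.8) and 16.3 (9.67 to 25.8). The other ligands were low in osteoblast-like cells. Tgfb3 was at 143 (136 to 149) and 150 (128 to 174) in ectocranial mesenchyme-like cells and at 143 and 147 in 1 of 2 dura mater-like clusters, against 21.5 and 27.7 in osteoblast-like cells. Tgfb2 was at 79.9 (72.9 to 87.3) and 99.5 (86.2 to 114) in suture mesenchyme-like cells and at 86.5 and 94.2 in the other dura mater-like cluster. In osteoblast-like cells Tgfb2 was at 11.1 and 13.2. Its highest mean, in chondrocyte-like cells, rested on 143 in library 1 and on 4 UMIs in library 2.

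Tgfbr2 was highest in endothelial-like cells, at 146 (126 to 168) and 237 (189 to 293), and next in a dura mater-like cluster at 106 and 145. It was at 30.2 and 45.5 in suture mesenchyme-like cells and at 21.8 and 23.5 in osteoblast-like cells. Tgfbr3 was highest in the second dura mater-like cluster, at 59.5 and 77.6, and at 2.51 and 4.50 in osteoblast-like cells, near the 3.19 and 0 of macrophage-like cells. Tgfbr1 ranged from 16.8 to 44.9 among the classes in library 1, and its highest class was a dura mater-like cluster in library 1 and macrophage-like cells in library 2, at 78.4. Ltbp1 was highest in ectocranial mesenchyme-like cells, at 151 (145 to 158) and 210 (184 to 239), against 31.9 and 34.7 in osteoblast-like cells. Suture mesenchyme-like cells, at 20.2 and 38.6, were not set apart from osteoblast-like cells in Ltbp1. Ltbp3 was highest in both dura mater-like clusters, between 156 and 246, against 60.0 and 73.7 in suture mesenchyme-like and 44.8 and 59.8 in osteoblast-like cells.

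Tgfbi was highest in chondrocyte-like cells, at 444 (417 to 473) and 515 (355 to 723), followed by suture mesenchyme-like cells at 320 (306 to 335) and 269 (247 to 293) and macrophage-like cells at 330 (315 to 345) and 250 (220 to 282). The second dura mater-like cluster held 301.5 and 186, and proliferating-like cells 199 and 145. Osteoblast-like cells held 35.4 and 27.97, and endothelial-like cells 28.6 and 31.4. Several unlike classes therefore carried Tgfbi in the coronal suture at this age. Skil was at 91.0 and 108 in ectocranial mesenchyme-like cells and at 29.4 and 25.4 in osteoblast-like cells. At E16.5, with 34 to 244 UMIs per gene over all classes, means of the 2 libraries over the classes present in both were highest for Tgfb1 in osteoblast-like cells (188 and 152), for Ltbp1 in ectocranial mesenchyme-like cells (204 and 166), for Tgfbr2 in endothelial-like cells (134 and 155) and for Tgfbi in chondrocyte-like cells (415 and 376). Of these orders the one for Ltbp1 held without overlap of the libraries of the next class. Macrophage-like cells held 116 and 159 for Tgfb1 and 423 and 318 for Tgfbi, and ectocranial mesenchyme-like cells 179.8 and 104 for Tgfbr2. Hypodermis-like cells, with 122 cells in library 1 and 1 in library 2, below the minimum of 10, held 215 (166 to 274) for Tgfbr2 in library 1. Dura mater-like cells had the highest means for Tgfb2 (98.3 and 115.5), Tgfb3 (153 and 185), Tgfbr3 (43.7 and 23.1), Ltbp3 (327.5 and 219.5) and Skil (76.4 and 46.2), and osteoclast-like cells for Tgfbr1 (97.95 and 83.3), and for Tgfb2, Tgfb3 and Tgfbr1 the libraries of the next class lay below.

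**Figure D5:**
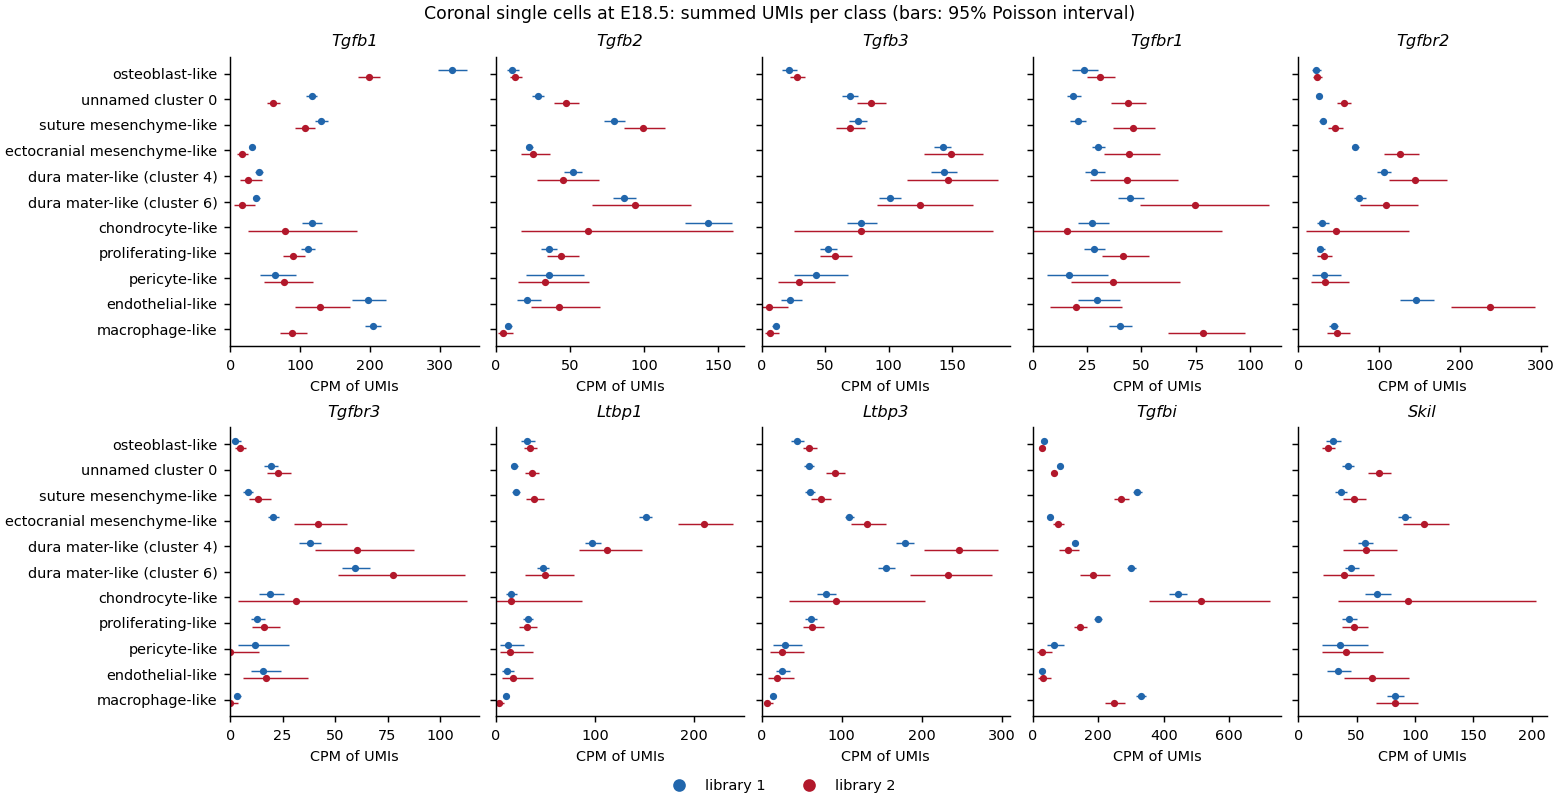
CPM of each of the 10 genes in the E18.5 cell classes (linear axis, a scale for each gene), with a point for each of the 2 libraries and exact 95% Poisson bars that cover counting error only. Osteoblast-like cells hold the highest Tgfb1 point of each library, at 318 and 199, and are among the lowest for Tgfb2, Tgfb3, Tgfbr2 and Tgfbr3.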

How the data were processed

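Per the labels and the methods of the study, RNA of laser-captured tissue was extracted with DNase treatment, amplified (Ovation RNA-Seq V2) and made into Nextera XT libraries, and reads were trimmed with cutadapt, aligned to mm10 with STAR 2.5.3a and counted without strand by featureCounts 1.6.4. The authors deposited raw counts per gene, and for single cells UMI counts from Cell Ranger (10x v3 at E16.5, v2 at E18.5). A table of 62 columns of their own log2 ratios and test results was not used. Symbols were paired with 55394 of 55487 gene IDs.

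Genes with at least 1 CPM in more than 10% of the 100 first libraries were tested in edgeR 4.0.16 (R 4.3.3) with TMM scaling, a mean per group and quasi-likelihood F tests, with Benjamini-Hochberg adjustment over 19768 genes and a threshold of 0.05. SE is the fold change divided by the square root of F. Alternatives were DESeq2 1.42.0, limma 3.58.1 (voom), other scalings, no filter, the second libraries, the embryo as a block and leaving out each replicate number. The litter label pairs SM and OF libraries of an embryo. Residuals of the 60 pairs had a median correlation of 0.0505, 16 of them over 0.1, against -0.0121 between embryos. Replicates of a group were separate embryos that in part shared a litter, and litter was not a term of the fits. All 20 groups were in one fit that shared its estimate of the spread. The p-values thus measure a spread between embryos pooled over the groups, not that of the groups compared. Groups that spread more than the pooled value can gain calls, and groups that spread less can lose them. The member and pathway lists were chosen with earlier results of these data known. All members were named, and from each pathway list up to 3 genes with the largest called SM difference and up to 2 for each age change, except 1 gene that is not reported here. Scripts were tested on simulated data.

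Cells with at least 800 genes and within 3 median absolute deviations were clustered with scanpy 1.11.5 (2000 variable genes, 13 components, 100 neighbours, resolution 0.8) and named from marker lists, so classes are rebuilt and may differ from those of the study.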

Additional observations from a re-analysis of the deposited data

Results flagged for a closer look

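In 4 of the 200 sets of 5 libraries, 1 library stood apart by Dixon's ratio (limit 0.71), a number below the 1 in 20 that chance gives. Replicate 1 of the E18.5 coronal frontal OF was low in Ltbp1, at 80.2 CPM against 108 to 113 CPM (ratio 0.834), and in Skil, at 85.1 against 109 to 114 CPM (ratio 0.815). Replicate 2 of the E18.5 frontal OF of the frontal suture was high in Tgfbr1, at 76.3 against 48.7 to 55.5 CPM (ratio 0.754), and replicate 2 of E16.5 frontal SM was high in Tgfbi, at 33.5 against 15.2 to 19.1 CPM (ratio 0.786).

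The SM difference varied among the 4 sutures by the edgeR F test for Ltbp1 (adjusted p = 6.87e-08), Tgfbr1 (6.71e-06), Ltbp3 (2.81e-04), Tgfbr2 (8.22e-04), Skil (0.00226), Tgfb1 (0.00781) and Tgfb2 (0.00813). The change with age varied among the sutures for Tgfbi (adjusted p = 3.81e-13), Tgfb2 (5.83e-05), Ltbp3 (1.82e-04), Skil (0.00316), Tgfb3 (0.00972) and Tgfbr2 (0.0219), in an F test added after the values were seen. For the coronal suture, which held the deepest libraries and at E16.5 mostly fewer genes with a count, suture, depth and genes detected cannot be told apart in either test. For all 4 sutures, suture and litter cannot be fully told apart.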

How the results depend on the processing

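Of 2782 values recomputed under the alternatives, 2539 kept their direction and side of the threshold, 216 kept the direction but were no longer called, 16 became called and 11 changed sign. For single regions and pairs these values are the tests called with all libraries, so calls gained there, such as those of DESeq2 and limma-voom in the E18.5 coronal suture against the frontal OF, are not among the 16. The count of calls over the 10 regions with age, 27 with all libraries, was 16 to 25 when 1 replicate of every group was left out, and that of the front comparisons, 6 with all libraries, was 3 to 6. With the embryo as a replicate block, 1 gene in place of 0 was called for a different SM difference between the ages, 73 in place of 70 of the 12 SM comparisons and 8 in place of 6 of the front comparisons were called, and no other call of the 10 genes changed beyond those given above. Scaling by total counts moved the mean SM difference of Tgfbr1 to 0.0071 and the age changes in the coronal frontal OF of Tgfbr1 to 0.11 and of Skil to 0.14. The age change of Ltbp1 in SM was 0.0324 with the second libraries, and that of Tgfbr2 in OF was -0.0071 without the E18.5 coronal frontal OF. The age difference in the SM comparison, which was not called, changed sign when replicates were left out in turn for Tgfb1 (-0.1233 to 0.0676, positive without replicate 5), Tgfbr1 (-0.0442 to 0.0584, negative without replicate 2 or 3), Tgfbr2 (-0.0437 to 0.0573, negative without replicate 2) and Tgfbr3 (from -0.0281 without replicate 2), and for Tgfbr2 with the second libraries (-0.022). The median of all genes in the mean SM comparison was 0.04 under TMM, 0.10 under median-ratio and 0.14 under total-count scaling, and 49.8%, 57.3% and 61.7% of all calls were higher in SM (57.7% under DESeq2). The cause of these changes was not tested. At E16.5 the single-cell values rest on few UMIs, and intervals cover counting error only.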
